A study of Mus musculus with 12 samples.

Results

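Hearts of mice given sorafenib alone were compared with control hearts, across all genes. The comparison was defined by the labels: it takes the 3 libraries labelled sorafenib and the 3 labelled ctrl, 6 of the 12 libraries of the series, and no library with PLX3397, an inhibitor of the macrophage growth factor receptor CSF1R. Of 30199 genes in the deposited table, 17859 had enough counts to be tested. All groups are hearts of C57BL/6J mice with no engineered allele named in the labels. The labels name no agent, vehicle included, for the ctrl group. All 12 libraries, the controls and both PLX3397 groups included, belong to the time point of 28 days. A second sorafenib comparison, used below for values in other libraries, set 3 libraries labelled with both sorafenib and PLX3397 against 3 labelled PLX3397 alone. Dose, route, sex, age and time of day are not in the labels. Nor do these state that libraries come from separate animals, so the p-values measure the spread between these samples only. In its title the series is about PDE2A, a phosphodiesterase, in macrophages and about damage to the heart by sorafenib.

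Sorafenib is a kinase inhibitor used against liver, kidney and thyroid cancer. It blocks RAF kinases and the receptors of VEGF and PDGF, and it can harm the heart. A bulk heart library is dominated by transcripts of cardiomyocytes and their mitochondria, and holds smaller amounts from endothelial cells, fibroblasts, pericytes, resident macrophages and the Schwann cells of cardiac nerves. Fewer cells of a type and less RNA per cell cannot be told apart in such libraries. Heart cells also run a circadian clock, in which BMAL1 (gene Arntl) and CLOCK drive the genes of their own repressors through a DNA motif called the E-box.

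Total estimated counts were 63790338 to 64537365 per library in controls and 61685187 to 62905068 with sorafenib. Genes with a count above 0 numbered 22184 to 22554 in controls and 21862 to 22032 with sorafenib. The groups did not overlap in either measure (exact permutation test, two-sided, p = 0.100 for each). Whether this difference moved the calls was not tested. The tissue label was checked against 12 heart identity genes, all of which were present, with a summed level of 37565 to 41291 CPM in controls and 42849 to 46839 CPM with sorafenib. CPM are counts scaled to library size, here with the TMM method of edgeR. The deposited table held no row for the adult fast skeletal myosin gene Myh4, so its level could not be read. Mitochondrial genes took 29.8% ± 0.929 of the counts in controls and 32.4% ± 1.61 with sorafenib (SD, n = 3 each, exact permutation test, two-sided, p = 0.200, where 0.100 is the smallest p that 3 against 3 libraries allow). Correlations of log2 CPM were 0.965 to 0.977 within groups and 0.953 to 0.968 between them. The first principal component, with 35.9% of the variance, held the controls at -53.6 to -27.1 and the sorafenib libraries at 27.1 to 51.6. Sorafenib replicates 1 and 2 stood at opposite ends of the second component, at -35.3 and 62.5, and replicate 1 was rich in atrial transcripts, as described further on.

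With the quasi-likelihood test of edgeR, 460 genes were called at an adjusted p under 0.05, which is 2.58% of those tested. Of these, 182 were higher with sorafenib (1.02%) and 278 were lower (1.56%). An unadjusted p under 0.05 was found at 3840 genes (21.5%). Counts of list members given below can be set against these shares. The calls higher were mostly small changes of moderately expressed genes, with a median log2 fold change of 0.63 and a median level of 5.93 FPKM. The calls lower were larger changes of weakly expressed genes, with a median of -1.21 and a median level of 1.18 FPKM. Of the 460, 203 differed by a factor of 2 or more (1.14%). The median over all genes tested was -0.02, and 48.1% of them were above 0. The 6 libraries separated at each of the 460 genes, meaning that the CPM of both groups did not overlap, but the same was true of 4877 genes in all, 27.3% of those tested (2363 higher, 13.2%, and 2514 lower, 14.1%). The split between directions moved with the fit: 500 genes were called when all 12 libraries were fitted together (2.65%), 284 higher and 216 lower, and 80 and 751 with limma on the deposited FPKM. Leaving out 1 library had a large effect on the number of calls. Without control replicates 1, 2 and 3 it was 1316 (775 higher and 541 lower), 28 and 29, and without sorafenib replicates 1, 2 and 3 it was 28, 724 (171 higher and 553 lower) and 221. In all 9 alternative fits that kept the 6 libraries, 168 of the 460 genes were called in the same direction.

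**Figure D1:**
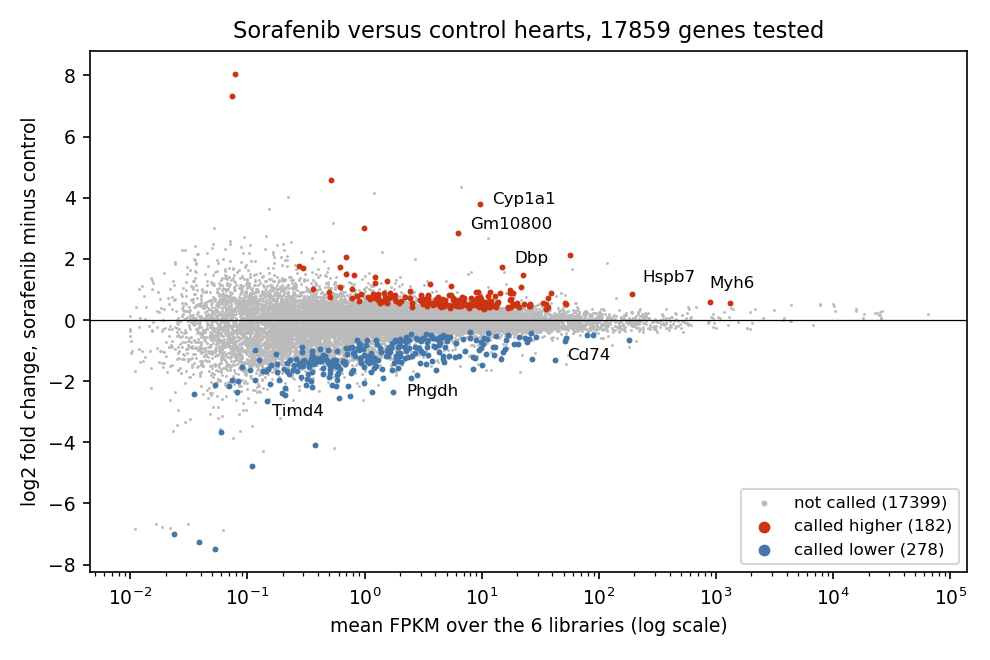
Log2 fold change of sorafenib against control hearts (vertical axis) plotted against the mean FPKM of the 6 libraries on a log scale (horizontal axis), 1 point per gene tested. The 182 genes called higher lie mostly below a log2 value of 1 and at 1 FPKM or more, while the 278 called lower reach further from 0 and include many genes under 1 FPKM.

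A set of 17 genes was called in the same direction in all 16 fits, made with 15 other settings besides the main one, including each of the 6 fits that leave out a library. The 9 that rose were Cyp1a1, Gm10800, Dbp, Per3, Nr1d1, Nr1d2, Tef, Pik3ip1 and Foxo3. The 8 that fell were Timd4, Phgdh, Cd83, Kif21b, Cybb, Ptpn6, Arntl and Cyth4. Of these 17, 6 belong to the clock (5 that rose, and Arntl). In the second sorafenib comparison, all 17 had the same sign and 13 were called, the others being Kif21b, Nr1d1, Phgdh and Ptpn6. The choice of the 17 was not independent of that comparison. The fit of all 12 libraries, 1 of the 16, also used its libraries. Calls outside this set ended in at least 1 of these fits, most often in a fit with 1 library fewer.

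**Figure D2:**
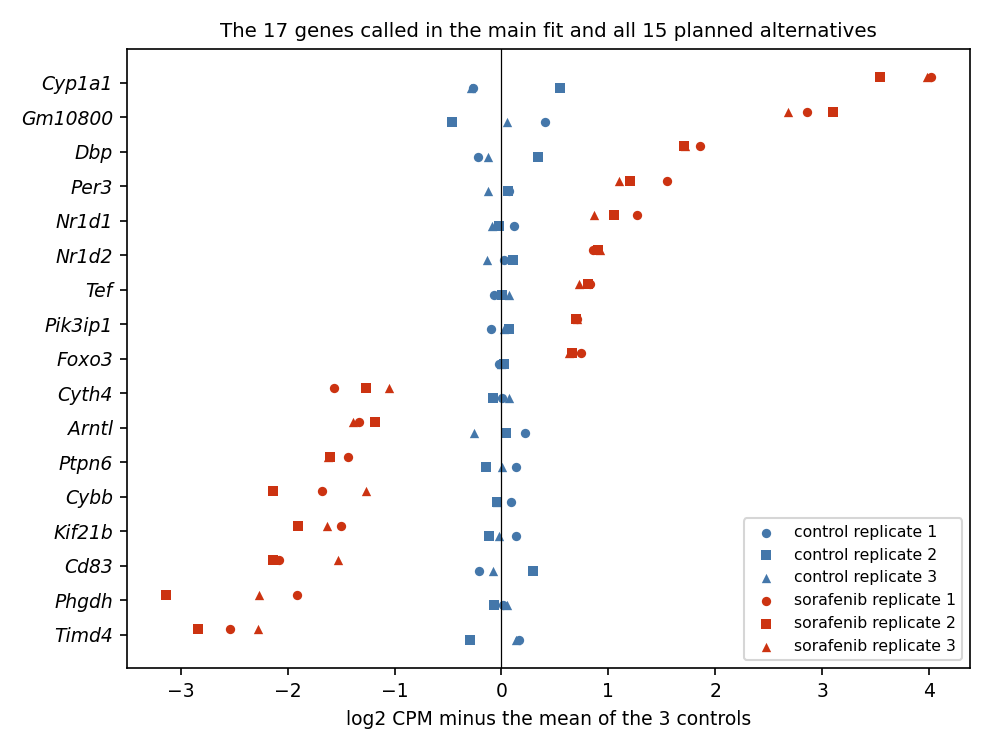
Level of the 17 genes called in every planned fit, as the log2 CPM difference from the control mean (horizontal axis), with 1 symbol per library. The 3 sorafenib libraries lie apart from the 3 controls at each gene, from about 4 above at Cyp1a1 to 2 or more below at Timd4.

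Cyp1a1 (chr9:57687928-57703824, mm10, plus strand) encodes a cytochrome P450 that the aryl hydrocarbon receptor induces in response to foreign and some natural compounds. It measured 3.23, 5.66 and 3.19 CPM in the controls and 63.0, 45.2 and 61.1 CPM with sorafenib. Every sorafenib library was thus at least 45.2 CPM and every control at most 5.66 CPM. The rise was 3.81 ± 0.26 on the log2 scale (SE, n = 3 per group, adjusted p = 0.00191), and 3.67 to 4.13 when a library was left out. In the second comparison it rose as well, from 9.70, 12 and 12.2 CPM with PLX3397 to 91.4, 58.3 and 41.8 CPM with both agents. Of 10 tested genes of the receptor and its targets, Cyp1a1 was the 1 called. The receptor gene Ahr had a value of 0.62 ± 0.19 (adjusted p = 0.112) and its repressor gene Ahrr one of 0.82 ± 0.21 (adjusted p = 0.0673), both chosen after their values were seen. The NAD(P)H quinone dehydrogenase gene Nqo1, likewise chosen, was at -0.09 ± 0.13. Cyp1b1, another P450 gene of this group and also chosen, measured 6.73, 5.88 and 7.92 CPM in the controls and 13.2, 3.78 and 6.33 CPM with sorafenib, and the groups overlapped.

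Among 19 genes of the circadian clock, 11 rose and 2 fell (the share of all genes called was 2.58%), and the median was 0.69 against -0.02 over all genes. In the clock, BMAL1 and CLOCK switch on the repressor genes Per1 to Per3, Cry1, Cry2 and Ciart, the nuclear receptor genes Nr1d1 and Nr1d2, and the output factor Dbp. Dbp belongs to the PAR family of transcription factors, with Tef and Hlf, which bind a motif called the D-box. The proteins of Nr1d1 and Nr1d2, REV-ERB alpha and beta, repress Arntl. Both motifs were searched on both strands in the 250 bases before each annotated start in RefSeq (GRCm38.p6, the assembly of mm10), as CACGTG for the E-box and TTATGTAA for the D-box. The E-box was found in 1978 of 32851 promoters (6.02%) and the D-box in 269 (0.819%). Of 19 clock genes 16 had a promoter entry. The E-box lay in those of Bhlhe41, Ciart, Cry1, Per1 and Tef, and the D-box in that of Per3. Of 11 called clock genes with an entry, 3 held an E-box and 1 a D-box, while Cry1 and Per1 were not called. Neither motif lay in the window of Dbp, Nr1d1, Nr1d2, Hlf or Cry2, which rose. Per2 and Bhlhe40 were among the clock genes without a promoter entry, so their promoters were not searched. The stretches below belong to 3 genes that rose and are shown because they hold the motifs through which BMAL1 and the PAR factors are known to act. They run 5′ to 3′ on the strand of the gene, with the motif in capitals, and are Ciart at chr3:95882262-95882291 (minus strand), Tef at chr15:81811256-81811301 (plus strand) and Per3 at chr4:151044796-151044890 (minus strand).
Ciart: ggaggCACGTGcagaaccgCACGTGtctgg
Tef: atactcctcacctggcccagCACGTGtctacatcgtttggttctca
Per3: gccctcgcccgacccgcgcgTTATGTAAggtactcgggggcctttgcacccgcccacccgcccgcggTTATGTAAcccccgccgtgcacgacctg
The stretch of Ciart carries 2 of the 3 E-boxes in its window and that of Per3 both of its D-boxes. A motif is a description of the sequence and no binding was measured.

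The output gene Dbp (chr7:45705088-45710203, plus strand) showed the largest rise of the clock genes. It measured 19.4, 28.5 and 20.7 CPM in the controls and 81.8, 73.7 and 74.2 CPM with sorafenib, a rise of 1.74 ± 0.14 (adjusted p = 0.00191). Tef, its relative, went from 77.9, 81.8 and 85.6 CPM to 145, 143 and 135 CPM, a narrow spread in both groups (0.79 ± 0.08, adjusted p = 0.00353). Hlf, the third PAR factor, rose by 0.82 ± 0.12 (adjusted p = 0.0146). It was named with its values known, as were Ciart, Cry2, Bhlhe40, Bhlhe41 and Nfil3 below. Nfil3, which encodes a repressor that competes for the D-box, fell from 14.9, 13 and 13.4 CPM to 8.58, 7.08 and 6.56 CPM (-0.89 ± 0.14, adjusted p = 0.0210). Transcripts of the 3 PAR activators were thus higher, and those of the repressor lower, in all 3 sorafenib libraries.

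Of the repressor genes, Per3 (10, 9.97 and 8.73 CPM against 28.0, 22.0 and 20.5 CPM) rose by 1.29 ± 0.14 (adjusted p = 0.00464). Per2 went from 3.19, 5.15 and 4.89 CPM to 12.6, 9.83 and 12.4 CPM (1.40 ± 0.20, adjusted p = 0.0146). Ciart, a weakly expressed gene, went from 0.924, 1.13 and 1.26 CPM to 3.44, 2.78 and 2.93 CPM (1.46 ± 0.25, adjusted p = 0.0252). Cry2 rose by 0.65 ± 0.13 (adjusted p = 0.0381). Per1 and Cry1 were not called, and their values were 0.30 ± 0.23 and -0.47 ± 0.15. The E-box competitors Bhlhe40 and Bhlhe41 rose by 0.69 ± 0.13 and 0.73 ± 0.14 (adjusted p = 0.0333 and 0.0350).

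Nr1d1 (chr11:98767932-98775333, minus strand) went from 50.8, 46.0 and 43.9 CPM to 113, 97.0 and 85.4 CPM, a rise of 1.07 ± 0.11 (adjusted p = 0.00382). Nr1d2 went from 74.0, 78.8 and 66.6 CPM to 132, 136 and 138 CPM (0.89 ± 0.09, adjusted p = 0.00346). Their target Arntl (chr7:113207465-113314126, plus strand) moved the other way, from 17.2, 15.2 and 12.4 CPM to 5.87, 6.50 and 5.65 CPM (-1.32 ± 0.15, adjusted p = 0.00559). Its relative Npas2 had a value of -0.73 ± 0.23 (adjusted p = 0.104) and Clock one of 0.01 ± 0.13, both chosen after their values were seen. In the second comparison Dbp (2.10), Per2 (2.31), Per3 (1.75), Tef (1.33) and Nr1d2 (0.77) were called higher and Arntl (-2.41) lower, while Nr1d1 had 0.53 ± 0.24 (adjusted p = 0.347). Time of day moves these genes in a known cycle. The labels do not state when the hearts were taken, so an effect of the drug and a difference in the hour of sampling cannot be told apart. Across the fits that leave out a library, 5 to 12 clock genes were called higher and 1 or 2 lower. The lowest count, 5, came without control replicate 3 or sorafenib replicate 1, where the medians were 0.64 and 0.77.

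Of 12 genes of insulin and FOXO signalling, 4 rose (1.02% of all genes did) and 0 fell, and the median was 0.21. The mean over the list did not separate the groups, with 0.36, -0.20 and 0.28 in the sorafenib libraries relative to the control mean, so that replicate 2 lay below all 3 controls. Foxo3 (chr10:42181841-42276752, minus strand), a transcription factor that insulin signalling restrains, measured 42.6, 44.1 and 43.1 CPM in the controls and 72.3, 68.5 and 66.9 CPM with sorafenib (0.68 ± 0.08, adjusted p = 0.00626). The other members that rose were the insulin receptor gene Insr (0.58 ± 0.11), the PI3-kinase regulatory subunit gene Pik3r1 (0.65 ± 0.13) and the ubiquitin ligase gene Fbxo32, a known FOXO target (0.47 ± 0.10), with adjusted p of 0.0307, 0.0363 and 0.0385. Pik3ip1, which encodes an inhibitor of PI3-kinase, went from 33.1, 37.0 and 36.0 CPM to 57.5, 57.3 and 57.7 CPM (0.70 ± 0.08, adjusted p = 0.00631). The sorafenib libraries were nearly equal at this gene. Without any 1 of control replicate 2, control replicate 3 and sorafenib replicate 1, Foxo3 was the 1 member of the list still called, and limma on FPKM called 1 member, with a median of 0.08.

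Among regulators of metabolism, Ppargc1a (chr5:51454250-51567704, minus strand), the coactivator PGC-1 alpha of mitochondrial genes, went from 56.2, 51.8 and 49.7 CPM to 97.1, 85.5 and 81.6 CPM (0.74 ± 0.09, adjusted p = 0.00817). Lpin1, a phosphatidate phosphatase and partner of PGC-1 alpha, rose by 0.50 ± 0.10 (adjusted p = 0.0395). These were 2 of 12 genes. Of 20 genes of fatty acid uptake and oxidation 0 were called, with 3 at an unadjusted p under 0.05, as were 3840 of all genes tested (21.5%). Their smallest p belonged to Acot2 (0.60 ± 0.16, adjusted p = 0.0715), a mitochondrial thioesterase. Of 21 genes of glycolysis and the citrate cycle 0 were called and 8 were at an unadjusted p under 0.05, led by the hexokinase gene Hk2 (0.42 ± 0.11, adjusted p = 0.0672). DESeq2's Wald test called genes in all 3 lists: the highest numbers called higher in any fit were 4, 2 and 3. At most 1 fatty acid gene was called lower in any fit. The mRNAs of the mitochondrial genome were above 0 at 12 of 13 genes with a median of 0.25. None of the 13 was called, 8 were at an unadjusted p under 0.05, and DESeq2's Wald test called 5. mt-Nd5 measured 17495, 18572 and 13145 CPM in the controls and 25838, 25001 and 19471 CPM with sorafenib (0.51 ± 0.15, adjusted p = 0.0911). Nuclear genes of the respiratory chain had a median of -0.09 with 0 of 28 called and 3 at an unadjusted p under 0.05, led by Cox7a1 (-0.32 ± 0.11, adjusted p = 0.136), and 8 were called lower without control replicate 1.

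Several genes of the cardiomyocyte rose by less than 2-fold. Myh6 (chr14:54941921-54966641, minus strand), the main myosin heavy chain of the adult mouse heart, had 8714, 7163 and 7754 CPM in the controls and 11632, 12097 and 11085 CPM with sorafenib. The rise was 0.56 ± 0.10 (adjusted p = 0.0272). Myh7, the fetal and stress-associated myosin, had a value of 0.24 ± 0.11 (adjusted p = 0.236), and its groups overlapped. Mir208b, a microRNA gene that lies within an intron of Myh7, rose by 1.47 ± 0.29 (adjusted p = 0.0366) from 1.40, 0.807 and 0.825 CPM to 2.71, 2.97 and 2.75 CPM. Poly(A) libraries do not capture the mature microRNA, and these few counts cannot be told apart from those of unspliced Myh7. Tcap, which anchors titin at the Z-disc, rose by 0.59 ± 0.12 (adjusted p = 0.0385) and Nebl, a Z-disc protein, by 0.56 ± 0.10 (adjusted p = 0.0297). With Myh6 they were 3 of 20 sarcomere genes, and 0 of the 20 were called without control replicate 3 or sorafenib replicate 1. Hspb7, a small heat shock protein of heart muscle, went from 428, 424 and 408 CPM to 713, 936 and 609 CPM (0.84 ± 0.14, adjusted p = 0.0239). Dmd, which encodes dystrophin, rose by 0.87 ± 0.12 (adjusted p = 0.0146).

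Of 16 calcium-handling genes, 3 rose. They were the L-type calcium channel genes Cacna1c (0.55 ± 0.11) and Cacnb2 (0.64 ± 0.12) and the sodium-calcium exchanger gene Slc8a1 (0.57 ± 0.12), with adjusted p of 0.0378, 0.0333 and 0.0411. Adcy6, the adenylate cyclase downstream of beta-adrenergic receptors, went from 106, 103 and 94.3 CPM to 179, 163 and 134 CPM (0.65 ± 0.11, adjusted p = 0.0239), 1 of 18 genes of that pathway. Without any 1 of control replicate 2, control replicate 3 and sorafenib replicate 1, 0 calcium-handling genes were called, and Cacnb2 was the 1 that stayed called once a trend with gene length, described further on, was taken out.

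Pde2a (chr7:101421691-101512827, plus strand), which encodes a phosphodiesterase that degrades cAMP and cGMP and is stimulated by cGMP, measured 63.4, 49.9 and 58.2 CPM in the controls and 76.8, 77.0 and 67.4 CPM with sorafenib. The groups did not overlap, and sorafenib was higher in all 3 libraries, as it was for 2363 genes (13.2%). The value was 0.37 ± 0.10 and did not pass (adjusted p = 0.0862). Across these settings the adjusted p reached 0.268. In the second comparison the value was -0.03 ± 0.14 (adjusted p = 0.937). Whole heart libraries pool Pde2a of every cell type, so its macrophage level cannot be read from them. Of 15 phosphodiesterase genes 1 was called: Pde1c rose by 0.43 ± 0.09 (adjusted p = 0.0385), a call that ended with the length trend taken out (0.14, adjusted p = 0.453). Pde7a (0.59 ± 0.14, adjusted p = 0.0536) and Pde1b (-0.79 ± 0.18, adjusted p = 0.0511), chosen after their values were seen, lay just outside the threshold.

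Of 30 markers of resident macrophages, 8 fell and 0 rose, 29 had values below 0, and the median was -0.98. Over all genes tested, 1.56% were called lower and 48.1% were above 0. Timd4 (chr11:46810800-46844332, plus strand), a receptor for phosphatidylserine that marks long-lived resident macrophages, measured 2.63, 1.91 and 2.58 CPM in the controls and 0.405, 0.328 and 0.483 CPM with sorafenib. That was the largest fall of the list, at -2.54 ± 0.31 (adjusted p = 0.00795). Csf1r, the receptor for colony stimulating factors on which these cells depend, went from 59.6, 48.7 and 54.3 CPM to 21.7, 19.8 and 30.7 CPM (-1.17 ± 0.16, adjusted p = 0.0146). Fcrls went from 10.4, 8.62 and 13.1 CPM to 2.71, 2.56 and 4.03 CPM (-1.79 ± 0.22, adjusted p = 0.00817). The chemokine receptor gene Cx3cr1 and the lipopolysaccharide co-receptor gene Cd14 fell by 1.45 each (SE 0.23 and 0.24, adjusted p = 0.0218 and 0.0238).

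Sorafenib replicate 3 was less far from the controls than the other two. Its mean over the 30 markers was -0.65 relative to the control mean (log2 CPM), against -1.14 and -1.34 in replicates 1 and 2. Adgre1, which encodes the surface antigen F4/80, shows the same order, with 24.8, 16.7 and 18.3 CPM in the controls and 8.56, 6.22 and 15.5 CPM with sorafenib, and it was not called (-0.98 ± 0.34, adjusted p = 0.171). Summed over the list, the markers measured 728 to 970 CPM in the controls and 407, 392 and 673 CPM with sorafenib. Without sorafenib replicate 3, 15 of the 30 were called lower, and without replicate 1 it was 1. It was 2 without control replicate 2 or 3, while the median stayed at -1.19 to -0.73 across the fits that leave out a library. Each of the 3 sorafenib libraries thus had a summed marker level below every control.

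Several genes outside the macrophage list were named for the size or the stability of their fall, so they are not evidence on a group. Cybb (chrX:9435252-9487771, minus strand), the catalytic subunit of the phagocyte oxidase, went from 17.1, 15.6 and 15.6 CPM to 5.02, 3.66 and 6.70 CPM (-1.65 ± 0.20, adjusted p = 0.00633). Ptpn6, the phosphatase SHP-1 of blood cells, went from 9.40, 7.72 and 8.56 CPM to 3.15, 2.80 and 2.77 CPM (-1.56 ± 0.17, adjusted p = 0.00464). Cd83, an activation marker of antigen-presenting cells, went from 9.13, 13 and 10 CPM to 2.51, 2.40 and 3.67 CPM (-1.91 ± 0.22, adjusted p = 0.00559). Cyth4, a guanine nucleotide exchange factor of blood cells, fell by 1.29 ± 0.15 (adjusted p = 0.00636). The purine receptor gene P2rx7 (-1.90), the interleukin 10 receptor gene Il10ra (-1.70) and Wfdc17 (-1.64) were among the 20 largest falls at 1 FPKM or more. Of 17 complement and Fc receptor genes, 3 fell: the complement genes C1qa (-1.27 ± 0.23) and C1qc (-1.13 ± 0.19) and the Fc receptor gamma chain gene Fcer1g (-1.25 ± 0.23), with adjusted p of 0.0376, 0.0307 and 0.0331. The complement calls rested on few libraries, with 6 of 17 called without sorafenib replicate 3 and 0 without sorafenib replicate 1 and likewise without control replicate 2 or 3.

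Genes that present antigen on MHC class II fell in 5 of 11 members (1.56% of all genes fell), with a median of -1.17. H2-Aa, H2-Ab1 and H2-Eb1, which encode class II chains, the invariant chain gene Cd74 and the peptide-loading gene H2-DMb1 fell by 1.17 to 1.48, with adjusted p of 0.0217 to 0.0386. H2-Ab1 measured 31.2, 44.1 and 47.1 CPM in the controls and 11.2, 12.4 and 20.2 CPM with sorafenib. Among 22 cytokine and chemokine genes, 5 fell: the chemokine genes Ccl3 (-2.34), Ccl24 (-2.06) and Ccl9 (-0.81), the inflammatory cytokine gene Il1b (-2.13), and Tgfb1 (-0.61). The first 2 and Il1b were low in all libraries, with Il1b at 1.86, 1.15 and 2.25 CPM in the controls and 0.320, 0.259 and 0.612 CPM with sorafenib. The interferon-stimulated genes Irf7 (-0.60), Psmb8 (-0.64) and Bst2 (-0.78) were the 3 of 23 that fell, and the list's median was -0.14. Without any 1 of control replicate 2, control replicate 3 and sorafenib replicate 1, 0 class II and 0 interferon genes were called.

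Lists of other white blood cells held few called members but had medians near the -0.98 of the macrophage markers, at -0.98 for lymphocytes, -0.96 for monocytes and neutrophils and -0.82 for mast cells. Across the fits these 3 medians ran from -1.27 to -0.31, -1.36 to -0.27 and -1.49 to -0.34. That of the macrophage markers ran from -1.19 to -0.73. The differences between these lists were not tested. Of 11 lymphocyte genes 1 fell, the immunoglobulin heavy chain gene Ighm (-1.26 ± 0.26, adjusted p = 0.0416), and all 11 were below 0. Of 10 monocyte and neutrophil genes 0 were called by edgeR, with 2 at an unadjusted p under 0.05, and in any fit at most 1 was called. Of these 10 genes 3 were above 0. Sorafenib replicate 3 had a score of 0.11, against -0.13, -0.27 and 0.40 in the controls. The neutrophil gene S100a9 was at 0.219, 0.138 and 1.10 CPM with sorafenib against 1.5, 1.04 and 1.65 CPM in the controls (-1.52 ± 0.67, adjusted p = 0.228). Mast cell genes had 0 of 6 called, 1 at an unadjusted p under 0.05 and at most 1 in any fit, with Mcpt4 at -1.49 ± 0.48 (adjusted p = 0.118). Transcripts of red cells lay above 0 at 8 of 8 genes with 0 called and 4 at an unadjusted p under 0.05, and at most 3 were called in any fit. Their summed level was 2141, 2096 and 2751 CPM in the controls and 2548, 2531 and 3725 CPM with sorafenib. Hba-a2, an alpha globin gene, was at 0.42 ± 0.16 (adjusted p = 0.181).

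Of 28 genes of dividing cells, 10 fell (1.56% of all genes did) and 0 rose, 27 had values below 0, and the median was -1.06. Top2a, the topoisomerase of dividing cells, went from 10.3, 7.97 and 9.16 CPM to 3.29, 3.40 and 4.11 CPM (-1.35 ± 0.17, adjusted p = 0.00920). The spindle gene Tpx2 (-1.60 ± 0.26), the mitotic kinase gene Cdk1 (-1.44 ± 0.24), the cyclin gene Ccna2 (-1.13 ± 0.19) and the spindle checkpoint gene Bub1 (-1.70 ± 0.31) fell with adjusted p of 0.0218 to 0.0289. All of these had a mean level under 1 FPKM. Which cells divide cannot be read from whole hearts. This list and the macrophage markers were both lowest in sorafenib replicate 2 and least low in replicate 3, with list scores of -1.23 and -0.80 here. Other lists had that order too, integrated stress response genes among them (-0.55, -0.63 and -0.18), while Schwann cell genes did not (-0.45, -0.57 and -0.80). The part of macrophages in the fall of dividing cell genes was not tested. Without control replicate 3 or sorafenib replicate 1, 0 of the 28 were called, and without control replicate 2 it was 2.

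Enzymes of serine synthesis and genes of the response to amino acid shortage fell in part. Phgdh (chr3:98313170-98339990, minus strand), the first enzyme of serine synthesis, went from 7.87, 7.40 and 8.05 CPM to 2.06, 0.881 and 1.61 CPM. This was the largest fall among called genes at 1 FPKM or more, with predicted, RIKEN and clone symbols left out (-2.36 ± 0.28, adjusted p = 0.00631). Psat1, the next enzyme of the pathway, fell by 0.88 ± 0.18 (adjusted p = 0.0384). They were 2 of 12 serine and one-carbon genes. Of 15 genes of the integrated stress response, 3 fell (1.56% of all genes did). They were the asparagine synthetase gene Asns (-1.36 ± 0.24), the amino acid transporter gene Slc7a5 (-0.91 ± 0.17) and the stress-induced factor Atf3 (-1.60 ± 0.29), with adjusted p of 0.0282, 0.0312 and 0.0420. Atf4, which encodes the factor that activates these genes and is named here with its values known, had -0.34 ± 0.10 (adjusted p = 0.0942). Without any 1 of control replicate 2, control replicate 3 and sorafenib replicate 1, 0 of the 15 were called.

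Chaperones of the endoplasmic reticulum had a median of -0.41, with 0 of 18 called. An unadjusted p under 0.05 was found at 10 of them (21.5% of all genes), and DESeq2's Wald test called 6. Control replicate 3 stood above the other controls in this list, with a score of 0.34 against -0.19 and -0.15, and without it the median was -0.23. Sdf2l1 shows this, with 7.87, 11.0 and 20 CPM in the controls and 5.97, 5.32 and 5.80 CPM with sorafenib (-1.19 ± 0.31, adjusted p = 0.0858). Cytosolic heat shock genes had 0 of 15 called, 1 at an unadjusted p under 0.05 and at most 1 called each way in any fit. Genes of NRF2 and iron handling had 0 of 15 called, 3 at an unadjusted p under 0.05 and at most 1 each way, and the transferrin receptor gene Tfrc was at 0.85 ± 0.31 (adjusted p = 0.198). Of 12 p53 targets 1 fell, Bax (-0.58 ± 0.12, adjusted p = 0.0415). Fdps, an enzyme of the mevalonate pathway, fell by 0.59 ± 0.11 (adjusted p = 0.0340). It was 1 of 2 genes called lower among 18 of cholesterol and fatty acid synthesis, whose median was -0.25. Across the fits, 0 to 5 of the 18 were called lower. Of 12 glucocorticoid-responsive genes 1 rose, Klf9, from 91.6, 102 and 88.1 CPM to 132, 126 and 121 CPM (0.43 ± 0.09, adjusted p = 0.0376).

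Genes of the kinases that sorafenib blocks did not pass the test. Of 11, 0 were called by edgeR, 1 was at an unadjusted p under 0.05, and at most 1 each way was called in any fit. The VEGF receptor gene Flt1 had 56.9, 43.1 and 45.6 CPM in the controls and 65.4, 63.0 and 64.1 CPM with sorafenib (0.40 ± 0.11, adjusted p = 0.0732). Downstream of RAF, the ERK pathway induces its own feedback inhibitors and immediate early genes. Of 20 such genes 2 fell (1.56% of all genes did), and the median was -0.46 with 18 below 0. Fosb, an immediate early factor, went from 2.93, 2.26 and 3.88 CPM to 1.08, 0.518 and 0.902 CPM (-1.86 ± 0.34, adjusted p = 0.0300). Spry4, a feedback inhibitor of receptor kinases, went from 10.2, 12.5 and 11.2 CPM to 6.42, 7.14 and 8.15 CPM (-0.64 ± 0.14, adjusted p = 0.0456). In the second comparison Spry4 was called lower (-0.78 ± 0.18, adjusted p = 0.0482), while Fosb had 0.60 ± 0.92 (adjusted p = 0.806). Without control replicate 2 or 3, or sorafenib replicate 1 or 3, 0 of the 20 were called.

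Among vascular genes, single members fell while the lists stayed near 0. Cldn5 (chr16:18776847-18778262, plus strand), the tight junction protein of endothelial cells, went from 29.7, 30.0 and 35.2 CPM to 14.3, 16.3 and 18.5 CPM (-0.95 ± 0.12, adjusted p = 0.00983). It was the 1 of 18 endothelial markers called, and their median was 0.00. Kcnj8 (chr6:142564837-142571614, minus strand), a subunit of the ATP-sensitive potassium channel of pericytes, went from 41.0, 49.1 and 47.1 CPM to 21.2, 29.4 and 24.3 CPM (-0.87 ± 0.13, adjusted p = 0.0176). It was the 1 of 12 pericyte and smooth muscle genes called, and their median was 0.03. Both genes were called lower in the second comparison too, Cldn5 at -0.48 ± 0.10 (adjusted p = 0.0381) and Kcnj8 at -0.85 ± 0.14 (adjusted p = 0.0147). Epas1, the hypoxia-inducible factor HIF-2 alpha, rose by 0.89 ± 0.17 (adjusted p = 0.0385). Of 18 angiogenic and vasoactive genes 0 were called and 5 were at an unadjusted p under 0.05, as were 21.5% of all genes. The 5 were led by the endothelin receptor genes Ednrb (-0.56 ± 0.15, adjusted p = 0.0720) and Ednra (0.40 ± 0.12, adjusted p = 0.103). At most 2 of the 18 were called higher and 1 lower in any fit.

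Genes of the connective tissue gave few calls. Col1a1, the main fibrillar collagen, was at -0.07 ± 0.15 (adjusted p = 0.837) and Postn, which activated fibroblasts secrete, at -0.14 ± 0.34 (adjusted p = 0.856). Both groups overlapped at both genes, and without sorafenib replicate 2 the values were 0.12 and 0.18. Of 18 genes of fibrillar collagen and matrix 1 fell, Tgfb1, from 19.5, 20.3 and 19.5 CPM to 12, 13 and 13.9 CPM (-0.61 ± 0.11, adjusted p = 0.0293). Fibroblast markers had 0 of 12 called, 2 at an unadjusted p under 0.05, at most 1 each way in any fit, and a median of 0.00. Of 12 basement membrane genes the laminin gene Lama5 rose (0.71 ± 0.13, adjusted p = 0.0345). Bmp4, a secreted growth factor, rose from 1.76, 1.74 and 2.11 CPM to 5.71, 3.21 and 3.98 CPM (1.20 ± 0.26, adjusted p = 0.0415), and the receptor gene Bmpr2 rose by 0.47 ± 0.10 (adjusted p = 0.0411), 2 of 16 genes of this pathway.

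Of 10 Schwann cell genes, 3 fell (1.56% of all genes did) and 0 rose, all 10 were below 0, and the median was -0.54. Mbp, myelin basic protein, went from 60.3, 56.1 and 59.8 CPM to 23.1, 29.7 and 25.7 CPM (-1.17 ± 0.11, adjusted p = 0.00191). Cnp, an enzyme of myelin, fell by 0.67 ± 0.14 (adjusted p = 0.0381). Schwann cell factor Sox10, chosen after its values were seen, was at -0.10 ± 0.28, and Pmp22, another myelin protein gene so chosen, at -0.06 ± 0.11. Among genes named for the size or the stability of their fall, and not from a list, were Sncb (-1.38 ± 0.27, adjusted p = 0.0343) and Pcsk1n (-1.41 ± 0.30, adjusted p = 0.0386), the aldolase gene Aldoc (-1.41 ± 0.23, adjusted p = 0.0238) and the kinesin gene Kif21b (-1.67 ± 0.21, adjusted p = 0.00817). In the PLX3397 group, replicate 1 stood apart at Mbp, which was at 51.5 CPM there and at 18.8 and 17.6 CPM in PLX3397 replicates 2 and 3, against 17.9, 17.8 and 18.9 CPM with both agents. At this gene the 3 controls and that 1 library were high and the other 8 libraries low. Among the named falls, P2rx7, Aldoc, Sncb, Pcsk1n and Bmerb1 had the same split. PLX3397 replicates 1, 2 and 3 had 15.2, 5.16 and 5.11 CPM at P2rx7, and 4.08, 0.819 and 1.11 CPM at Sncb. Ptpn6, Kif21b and Phgdh leaned the same way. Other named falls did not, such as Timd4 with 1.98, 2.30 and 2.13 CPM. The cause of this split was not tested. The fit of all 12 libraries called 0 of the 10 Schwann cell genes.

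Atrial transcripts differed between libraries of 1 group, and with them the natriuretic peptides that serve as cardiac stress markers. Nppa, the atrial natriuretic peptide, measured 785, 334 and 526 CPM in the controls and 1336, 253 and 153 CPM with sorafenib (0.08 ± 1.0, adjusted p = 0.976). Sorafenib replicate 1 was above every control at it, and replicates 2 and 3 were below. The atrial myosin light chain gene Myl7 (280, 11.4 and 22.7 CPM with sorafenib) and the atrial growth factor gene Bmp10 (189, 0.795 and 0.918 CPM), chosen after their values were seen, had the same order. The 12 atrial and conduction genes summed to 1598, 808 and 992 CPM in the controls and to 2654, 361 and 330 CPM with sorafenib. None of them was called, 1 was at an unadjusted p under 0.05, and 0 were called in any fit. Without sorafenib replicate 1, Nppa was at -1.39 (adjusted p = 0.229). Nppb, the B-type natriuretic peptide and a marker of ventricular load, measured 103, 111 and 381 CPM in the controls and 102, 125 and 97.0 CPM with sorafenib (-0.88 ± 0.62, adjusted p = 0.494). Without control replicate 3 the value was 0.01. Of 13 genes of hypertrophy and injury 0 were called, with 2 at an unadjusted p under 0.05 and at most 1 in any fit, and their median was -0.02.

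**Figure D3:**
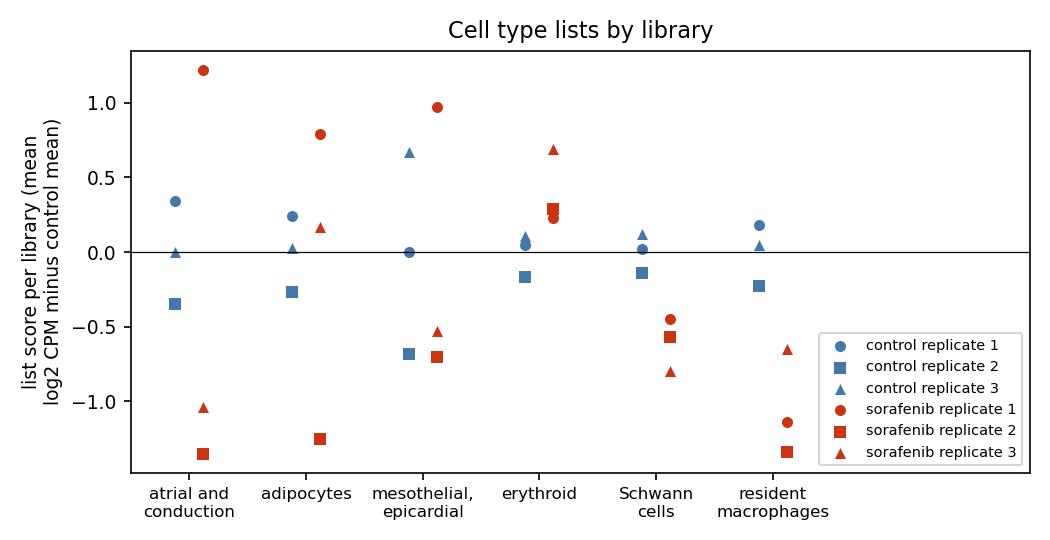
Mean log2 CPM of 6 cell type lists in each library, relative to the mean of the controls (vertical axis), with 1 symbol per library and 1 column per list. Atrial, adipocyte and mesothelial genes spread widely within the sorafenib group, with replicate 1 at 1.22 and replicate 2 at -1.35 for atrial genes, while the 3 sorafenib libraries lie below the controls for Schwann cells and resident macrophages.

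Adipocyte and mesothelial genes also varied with the library. Adipocyte genes had 0 of 9 called, 0 at an unadjusted p under 0.05 and 0 in any fit, with sorafenib scores of 0.79, -1.25 and 0.17. Mesothelial and epicardial genes had 0 of 8 called, 1 at an unadjusted p under 0.05 and 0 in any fit, with sorafenib scores of 0.97, -0.70 and -0.53. Across all 50 lists, 29 held a called member: 12 had members called higher only, 16 lower only, and the clock genes had both. The other named rises at 1 FPKM or more were Tmem252 (1.17), Fyco1 (0.97), an adaptor of autophagosome transport, Oxsm (0.95), Msrb3 (0.91), Rhobtb1 (0.90), Nudt12 (0.89), Coro6 (0.87) and Zfp366 (0.86). The other named falls were Prnd (-1.61), Fbxo2 (-1.56), Bmerb1 (-1.50) and Hpgd (-1.36), the enzyme that inactivates prostaglandins. Gm10800, a predicted gene that may share reads with near-identical copies, went from 1.47, 0.807 and 1.15 CPM to 8.06, 9.52 and 7.12 CPM (2.84 ± 0.25, adjusted p = 0.00191), and its value is uncertain for that reason.

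**Figure D4:**
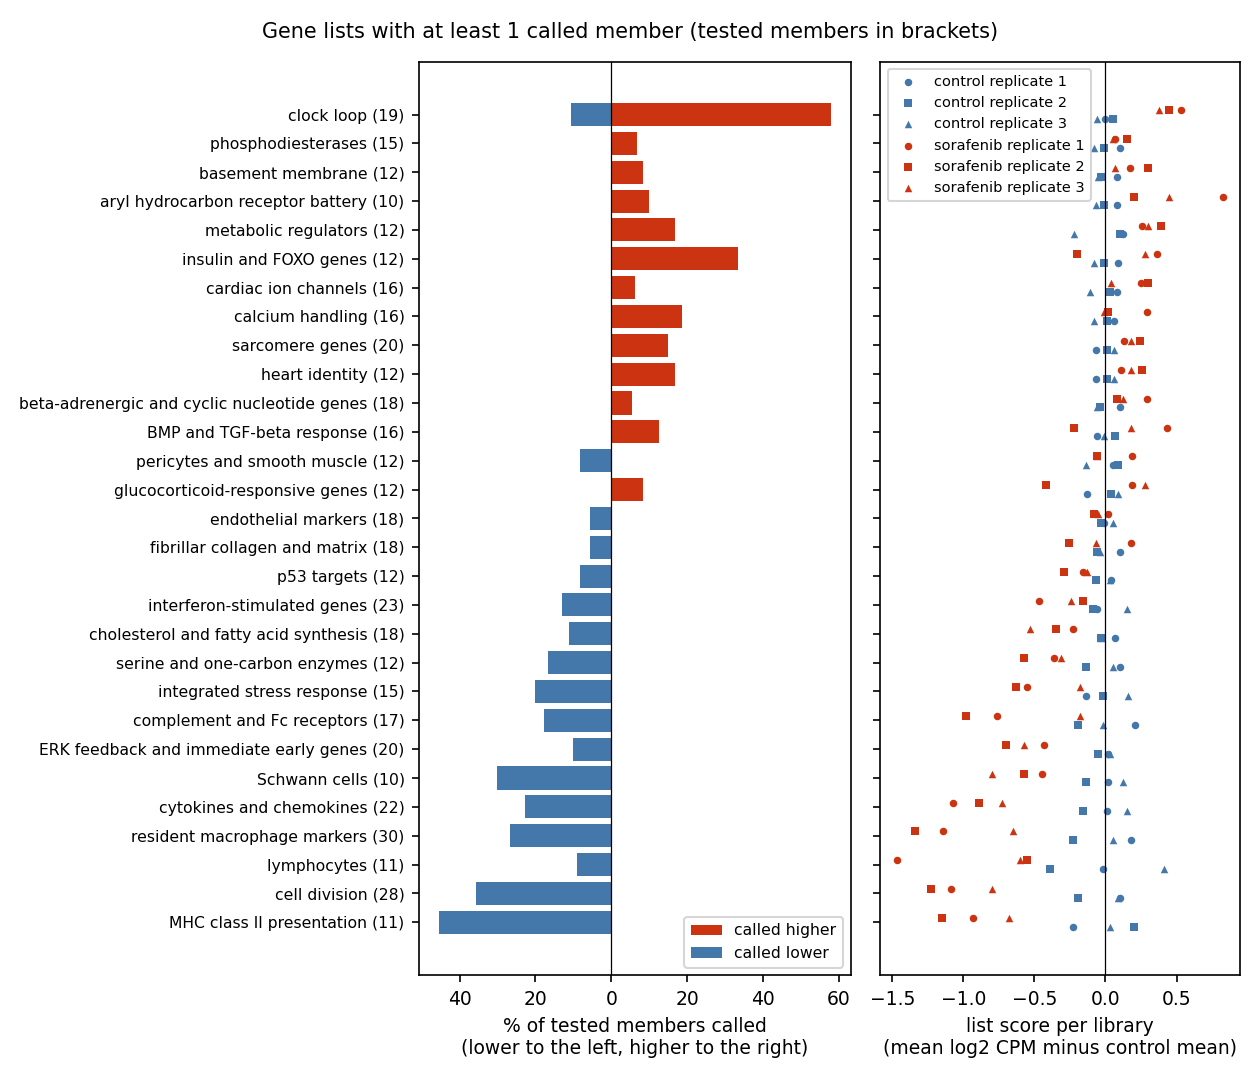
The 29 gene lists with at least 1 called member, ordered by median log2 fold change. The left panel gives the % of tested members called higher (to the right) or lower (to the left), and the right panel the mean log2 CPM of all tested members in each library relative to the control mean. Clock genes are the list with the largest share called higher, 11 of 19, and MHC class II genes the one with the largest share called lower, 5 of 11.

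Fold changes followed the length of the gene. For 9846 protein-coding genes at a mean of at least 1 FPKM, sorted into 5 equal classes by exon length, the median log2 fold change was -0.17 in the shortest class (204 to 2403 bases), then -0.06, 0.01 and 0.08, and 0.19 in the longest (7238 to 116825 bases). Of the calls in these classes, 3, 12, 26, 37 and 78 were higher and 54, 32, 36, 15 and 10 lower. The controls differed among themselves in the same way: relative to the control mean, replicate 1 went from -0.12 in the shortest class to 0.13 in the longest, and replicate 3 from 0.11 to -0.12. The sorafenib libraries went from -0.18, -0.21 and -0.11 to 0.21, 0.20 and 0.17. Ribosomal proteins, which have short mRNAs, were below 0 at 26 of 26 genes (median -0.25, 0 called, 13 at an unadjusted p under 0.05, and 18 called without control replicate 1). Large chromatin and coactivator genes were above 0 at 16 of 16 (median 0.39, 0 called, 15 at an unadjusted p under 0.05, and at most 12 in any fit). Of all genes tested, 48.1% were above 0 and 21.5% were at an unadjusted p under 0.05.

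When each library's trend with length was taken into the fit, a setting added after the data had been seen, 558 genes were called, 211 higher and 347 lower, of which 406 were among the 460. The median of the ribosomal proteins became -0.13 and that of the chromatin genes 0.22. The 17 genes called in every planned fit were all called, and the clock genes still counted 11 higher and 2 lower, macrophage markers 8 lower, and class II genes 5 lower. Dividing cell genes counted 11 lower. Of the named rises, Cacna1c (0.26, adjusted p = 0.0889), Slc8a1 (0.30, adjusted p = 0.103), Bmpr2 (0.20, adjusted p = 0.264), Lpin1 (0.36, adjusted p = 0.0621), Rhobtb1 (0.85, adjusted p = 0.0626) and Pde1c lost their call, and so did Bax among the falls (-0.45, adjusted p = 0.0521). Some rises that stayed called became smaller, as at Dmd (0.55), Nebl (0.33) and Insr (0.38), and some larger, as at Tcap (0.72).

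**Figure D5:**
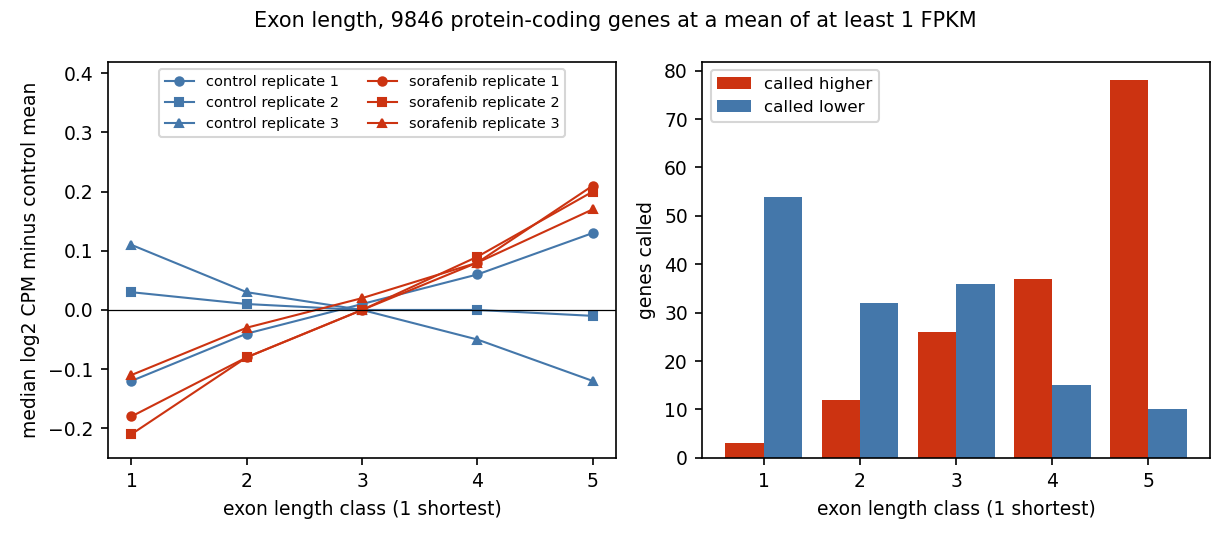
Left, median log2 CPM relative to the control mean in each library (vertical axis) for 5 classes of genes by exon length (horizontal axis, 1 shortest). Right, number of genes called higher and lower in each class. All 3 sorafenib libraries and control replicate 1 rise from left to right, and calls higher grow from 3 in the shortest class to 78 in the longest.

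The second comparison shares no library with the first. There, 487 of 17762 genes were called (2.74%), 151 higher (0.850%) and 336 lower (1.89%). Of the 460 genes called between sorafenib and control hearts, 456 were tested there, and 444 (97.4%) had the same sign, against 67.0% of all 17303 genes tested in both. Of the 456, 132 were called in both in the same direction (28.9% of them, and 27.1% of the 487), and 0 in opposite directions. The genes called higher had a median of 0.63 here and 0.36 there, and those called lower -1.20 and -0.75. PLX3397 replicate 1 stood apart from the other libraries of its group, as at Mbp, P2rx7 and Sncb above. Without it 384 of the 456 genes had the same sign (84.2%), against 58.2% of all 17459 genes tested in both, and 73 were called in both, with medians there of 0.27 and -0.49. Fcrls (-2.02 ± 0.18, adjusted p = 0.00109), Csf1r (-1.61 ± 0.14, adjusted p = 0.00109) and Timd4 (-3.76 ± 0.44, adjusted p = 0.00355) fell there as well, and Foxo3 (0.84 ± 0.11, adjusted p = 0.00574) rose.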

How the data were processed

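Total RNA of mouse hearts was extracted with Trizol, mRNA was selected with oligo(dT) and the second strand was made with dUTP, per the labels' protocols. The authors deposited 1 table with an estimated count and an FPKM value per gene and library. The deposited counts are whole numbers, but low values pile up at multiples of 4, so they were treated as estimated counts. The submitters' processing notes name DESeq2, edgeR and mm10 without versions; the sources used here name no aligner, counter or strand setting, so overlapping and antisense genes are uncertain. Depth was 61685187 to 64537365 counts per library, and 0 columns had no sample.

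Counts of the 6 libraries were fitted with edgeR 4.0.16 (R 4.3.3): a minimum count of 10 and total of 15 per gene (filterByExpr), TMM scaling, the robust quasi-likelihood test, two-sided, and Benjamini-Hochberg adjustment over all 17859 genes, with calls at an adjusted p under 0.05. The SE is the log2 fold change divided by the square root of F. The second sorafenib comparison was fitted alike in its own libraries. CPM are TMM-scaled, and list scores are means of log2 CPM with a prior count of 2. Where a symbol stood on more than 1 row (55 symbols), the row with the highest FPKM was used. Exon lengths came from GENCODE vM21, which held 30109 identifiers (99.7%). Samples were grouped by title. The procedure was tested on simulated data.

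Genes were named by a rule: 10 genes of the study's subject and of heart stress, the 20 largest called rises and falls at a mean of 1 FPKM or more, up to 5 called members of each list (up to 2 by smallest p where none was called), and the genes called in every fit. The rises and falls named by size left out predicted, RIKEN and clone symbols and genes whose groups overlapped. Other genes are said to be chosen after their values were seen. The comparison, the 50 lists and the tests were chosen with earlier results of these data known. Other settings were a fit of all 12 libraries, DESeq2 1.42.0 size factors, its Wald test, no filter, a filter of 1 CPM in 3 libraries, limma 3.58.1 on log2(FPKM + 0.5), the replicate number as a block, counts divided by 4, no mitochondrial genes, and leaving out each library. Taking out the length trend was added after the data had been seen. A few members of the lists are not reported here by name.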

Additional observations from a re-analysis of the deposited data

Results flagged for a closer look

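Cidea, a gene of lipid droplets in fat cells, had opposite signs in both sorafenib comparisons, with every sorafenib library on 1 side of its group's controls. Between sorafenib and control hearts its value was -0.23, from 14.4, 16.1 and 18.9 CPM in the controls to 13.5, 14.3 and 14.2 CPM. Between both agents and PLX3397 alone it was 0.31, from 14.3, 13.3 and 13.4 CPM to 14.8, 17.0 and 19.0 CPM. Neither passed edgeR's quasi-likelihood test (adjusted p = 0.313 and 0.214), and the difference between the comparisons was not tested.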

How the results depend on the processing

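Against 460 genes called, DESeq2's Wald test called 1700, no filter 762, counts divided by 4 801, and limma on FPKM 831, and leaving out 1 library gave 28 to 1316; the other alternatives gave 477 to 641. Against 487 in the second comparison, DESeq2's Wald test called 1201 and leaving out 1 library gave 79 to 355. Lists with a called member numbered 29, and 8 to 40 with 1 library left out. With the replicate block the first comparison had 584 calls, 381 of them among the 460, and the second 124. Libraries with the same number had correlations of their deviations of 0.008 to 0.051 in the first comparison, where 6 of 6 libraries correlated best with their own number, and of -0.060 to -0.014 in the second, so the numbers were not taken to pair the samples. Nppa (0.08) became -0.46 with the replicate block, -0.59 with limma on FPKM, and -1.39 to 0.55 with 1 library left out. Leaving out 1 library also turned the sign of Nppb (-1.19 to 0.01), Col1a1 (-0.22 to 0.12), Postn (-0.39 to 0.18) and the adipocyte gene Plin1 (-0.14 to 1.44). Of 2344 values of named genes under alternatives, 1929 kept direction and side of the threshold, 336 lost the call, 71 gained it and 8 turned. The causes were not tested. Depth limits most the genes under 1 FPKM.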
